A study of Mus musculus with 24 samples.

Results

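The genes that encode the proteins of the cytoplasmic ribosome were followed across 24 messenger RNA libraries of mouse embryos and yolk sacs. They were taken by name, as Rpl or Rps followed by a number and at most a letter and a digit, with Rpsa, Rplp0, Rplp1 and Rplp2 added and names holding -ps left out. This gave 89 of the 55421 genes listed, of which 53 carry large subunit names and 36 small subunit names. The annotation calls 83 of them protein coding. The other 6 (Rpl32l, Rpl6l, Rps12l1, Rps3a2, Rps3a3 and Rps4l) are annotated as pseudogenes. Rpl29 was chosen because it is low in one of the lines, so its values in that line are given as a description without a test. Standard errors (SE) printed with those values take no account of this choice.

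Whole embryos and yolk sacs came from C57BL/6 mice at embryonic day 9.5. Each tissue had 6 groups of 2 libraries. One line carries a null allele of Setd2, the gene for the enzyme that trimethylates lysine 36 of histone H3. The other carries a Setd2 allele named CD, for catalytic dead. Each line had wild type (WT), heterozygous (HE) and homozygous (HO) groups, so there was a WT group for each line and tissue and no library served as a control of both lines. The labels do not say how either allele was made, nor whether replicates came from separate animals or litters, so that p-values measure the spread between these libraries. By the Y-linked gene Ddx3y, replicates differed in sex in null HO and CD HE embryos and in null HE, null HO and CD HE yolk sacs. Those replicates were thus not from the same animal, while in the other groups the spread may be technical.

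A ribosome is built from ribosomal RNA and one copy of most ribosomal proteins, joined in the nucleolus with the help of many assembly factors. The small subunit reads the messenger RNA and the large subunit joins amino acids. Growing embryos make ribosomes at a high rate, and the messenger RNAs of these proteins, which begin with a run of pyrimidines, are kept in rough proportion to each other. Ribosomal protein genes also gave rise to many processed pseudogenes, intronless copies that can be nearly identical to the parent gene. When assembly stalls, free Rpl5 and Rpl11 with 5S RNA can bind Mdm2, the ubiquitin ligase that holds p53 down.

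Total counts per library ran from 23414255 to 27674831 in embryos and from 16400137 to 22113787 in yolk sacs. Values across libraries are given as CPM, counts scaled to a common library size. Setd2 stood at 229 to 232 CPM in null WT embryos, at 157 to 169 in HE and at 93.3 to 104 in HO, and at 213 to 255 in all CD embryos. In null yolk sacs it stood at 102 to 114 CPM in WT, 114 to 120 in HE and 75.6 to 78.9 in HO, so that transcript levels there do not separate WT from HE. All CD yolk sacs were at 170.2 to 194, and Setd2 was higher in CD WT than in null WT yolk sacs (0.77 ± 0.09, edgeR adjusted p = 0.00895), so the WT groups differed there in the targeted gene. The 5 heart markers summed to 915 to 1184 CPM in WT embryos and at most 7.67 in yolk sacs, and the 10 visceral endoderm markers, for the outer cell layer of the yolk sac, to 26865 to 45435 in yolk sacs. By the Y-linked gene Ddx3y, null WT embryos were female and null HE male, CD WT embryos male and CD HO female, and CD WT yolk sacs female and CD HO male. Sex therefore cannot be told apart from genotype in those contrasts without a model term.

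In embryos, Rpl29 (ENSMUSG00000048758), a basic protein of the large subunit, was at 315 and 304 CPM in null WT, 319 and 319 in null HE and 362 and 303 in null HO. In the CD line it was at 309 and 301 CPM in WT, 166 and 156 in HE and 30.0 and 26.03 in HO. The CD HE libraries lay below every WT library and the CD HO libraries far below these, and no CD group overlapped another. The fitted log2 change was -0.92 ± 0.08 (SE) in CD HE and -3.44 ± 0.09 in CD HO. In null HO embryos it was 0.10 ± 0.08 (edgeR quasi-likelihood adjusted p = 0.347), with the groups overlapping. The change in the CD line minus that in the null line came to -3.55 ± 0.12. Of the other 84 members tested in CD HO embryos, none fell below -0.57 (Rpl32l, at about 1 CPM or less), and 75 lay above 0.

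In yolk sacs Rpl29 was at 214 and 212 CPM in null WT, 219 and 214 in null HE and 226 and 201 in null HO. In the CD line it was at 227 and 149 in WT, 116 and 154 in HE and 21.7 and 15.6 in HO. The library labelled CD WT replicate 2 lay between the CD HE libraries. The log2 change in CD HO yolk sacs was -3.33 ± 0.21, or -3.61 without that library, and that in null HO was 0.01 ± 0.19 (edgeR adjusted p = 0.99). By length-scaled level (FPKM), Rpl29 ranked 29th of 89 members in CD WT embryos, 55th in CD HE and 80th in CD HO. The ranks in CD yolk sacs were 42, 56 and 82, while across the null groups they ran from 29 to 31 in embryos and from 34 to 37 in yolk sacs.

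Rpl29 lies on mm10 chromosome 9 from 106429454 to 106431568, on the plus strand and 4.1 Mb before the start of Setd2 on the same chromosome. Its coding sequence of 483 bases is spread over 3 exons. The tables list 31 pseudogenes with a stretch at least 95% identical to it over at least 200 bases. The copies with at least 20 counts in some library were 4, Gm8210 and Gm5561 on chromosome 1, Gm13841 on chromosome 5 and Gm10709 on chromosome 9 (chosen after their values were seen). Positions are counted from 1 at the A of the start codon, and a substitution gives the base of Rpl29 first. Gm8210 and Gm13841 are 99.4% identical to Rpl29 and carry the same substitutions, C72A, C300T and T423C. Gm10709 is 99.2% identical and carries G205A, C300T, T423C and G457A. The stretches around positions 72 and 457 are shown because they hold bases that tell Gm8210 and Gm13841, or Gm10709, from Rpl29. Neither base tells Gm8210 from Gm13841, and Gm5561 is not shown. Capitals mark the base of Rpl29 at that position and any base that differs from it. The exon 2 stretch of Rpl29 is chr9:106430322-106430362 and the exon 3 stretch is chr9:106431403-106431443, both on the plus strand of mm10, and the copies are printed in the direction of Rpl29.
Rpl29 exon 2: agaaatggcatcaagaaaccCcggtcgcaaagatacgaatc
Gm8210 (chr1:43189207-43189247, plus strand): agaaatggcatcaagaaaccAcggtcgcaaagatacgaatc
Gm13841 (chr5:115802068-115802108, minus strand): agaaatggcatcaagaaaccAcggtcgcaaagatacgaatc
Rpl29 exon 3: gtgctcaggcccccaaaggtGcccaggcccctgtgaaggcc
Gm10709 (chr9:7752161-7752201, plus strand): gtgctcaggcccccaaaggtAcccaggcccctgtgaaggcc

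The counts of these copies moved with Rpl29 across the CD groups, Gm8210 and Gm13841 in the opposite direction and Gm10709 in the same one. Gm8210 had 1 to 7 counts in each of the 8 null and CD WT embryo libraries, 289 and 344 in CD HE and 639 and 582 in CD HO. Gm13841 had 114 to 153 counts in those 8 libraries, 233 and 198 in CD HE and 320 and 223 in CD HO. Gm10709 had 237 to 390 counts in the same libraries, 156 and 188 in CD HE and 4 and 1 in CD HO. Neither range of these copies in CD HO met that in CD WT. In yolk sacs Gm8210 had 0 to 3 counts in the null libraries and in the library labelled CD WT replicate 1. The library labelled CD WT replicate 2 had 195, the CD HE libraries 220 and 131, and the CD HO libraries 459 and 192. By both Rpl29 and Gm8210, the library labelled CD WT replicate 2 thus sat with the heterozygous libraries.

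Reads that match several places may have been assigned to Rpl29 or to its copies, so the sum over Rpl29 and the 31 pseudogenes was also taken. The sum cannot show reads left uncounted, and how multiply matching reads were treated is not given. In CD WT most of it is the selected Rpl29 itself. It was 329 and 319 CPM in CD WT embryos, 194 and 184 in CD HE and 68.7 and 62.4 in CD HO. In CD yolk sacs the sums were 241 and 174, then 140 and 176, then 55.8 and 39.1. The copies by themselves came to 17.8 to 22.8 CPM in null and CD WT embryos, 28.8 and 27.96 in CD HE and 38.7 and 36.4 in CD HO. In CD yolk sacs the copies came to 14.4 and 25.03 CPM in WT, 24.3 and 21.9 in HE and 34.1 and 23.4 in HO. The sum was thus lower in CD HO than in CD WT in both tissues without overlap, while the copies by themselves were higher in HO embryos and overlapped between HO and WT yolk sacs.

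**Figure D1:**
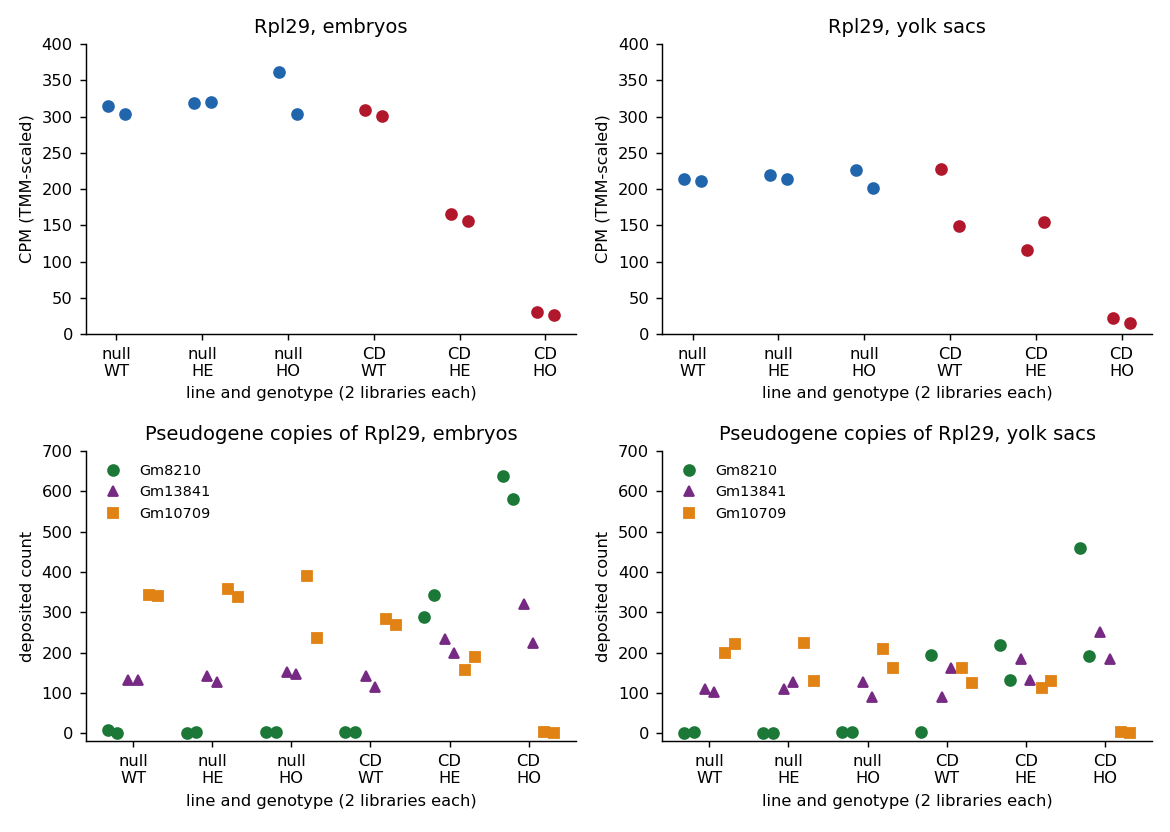
Rpl29 in CPM (top) and the deposited counts of 3 of its pseudogene copies (bottom) in every library, by line (null blue, CD red in the top row) and genotype, embryos left and yolk sacs right; each point is 1 library. Rpl29 and Gm10709 step down from CD WT to HE to HO and Gm8210 steps up, with the yolk sac library labelled CD WT replicate 2 at 149 CPM and 195 counts.

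Most other subunit genes were slightly higher in homozygous embryos of both lines. Of the 85 members that passed the filter on low counts in embryos (all but Rpl10l, Rpl39l, Rpl3l and Rps12l1), 30 rose and 1 fell in null HO at an edgeR adjusted p under 0.05 over all genes. Of the 19215 genes tested in that comparison, 16.2% rose and 32.7% were called in either direction. Of the 84 members other than the selected Rpl29, 17 rose and 0 fell in CD HO, where 6.92% of all genes rose and 16.1% were called. The change was positive for 69 members in null HO, beside 51.6% of all genes, and for 75 in CD HO, beside 50.3%. Sign counts were also uneven in embryo comparisons without a called member, given below. The change was positive for 71 of 85 members in null HE against WT (50.5% of all genes). It was positive for 15 of 85 in CD WT against null WT (50.5%). In null HO both libraries lay above both WT libraries for 47 members (33.3% of all genes), and in CD HO for 66 (28.6%). The median change was 0.12 on the log2 scale in each line, a 1.08-fold rise, beside 0.015 and 0.0024 for all genes. Large and small subunit names shared this, with medians of 0.10 and 0.14 in null HO and of 0.09 and 0.14 in CD HO.

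These counts depended on single libraries and on the model. The share of all genes called in each such run is not given here. Counts for CD HO in this paragraph include the selected Rpl29. For null HO, 8 members were called without null WT replicate 1, 17 without null WT replicate 2, 34 (26 up and 8 down) without null HO replicate 1 and 7 when only the 2 groups compared entered the fit. For CD HO, 8 were called when CD WT replicate 2 was left out, 10 when CD HO replicate 1 was, and 4 when CD HO replicate 2 was. A term for sex left 8 and a fit of the compared groups alone left 10. Leaving Rpl29 aside, the calls that held under every alternative run were Rps4l, Rps21, Rps27l, Rpl23 and Rpl36a in null HO. In CD HO they were Rps4l, Rps21 and Rpl37a. The share of all counts taken by the members was 3.87 to 4.48% in embryos. It was 0.249 percentage points higher in HO than in WT, averaged over the lines (exact permutation within lines, two-sided p = 0.111, where 0.0556 is the smallest possible), in a design that cannot reach 0.05.

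**Figure D2:**
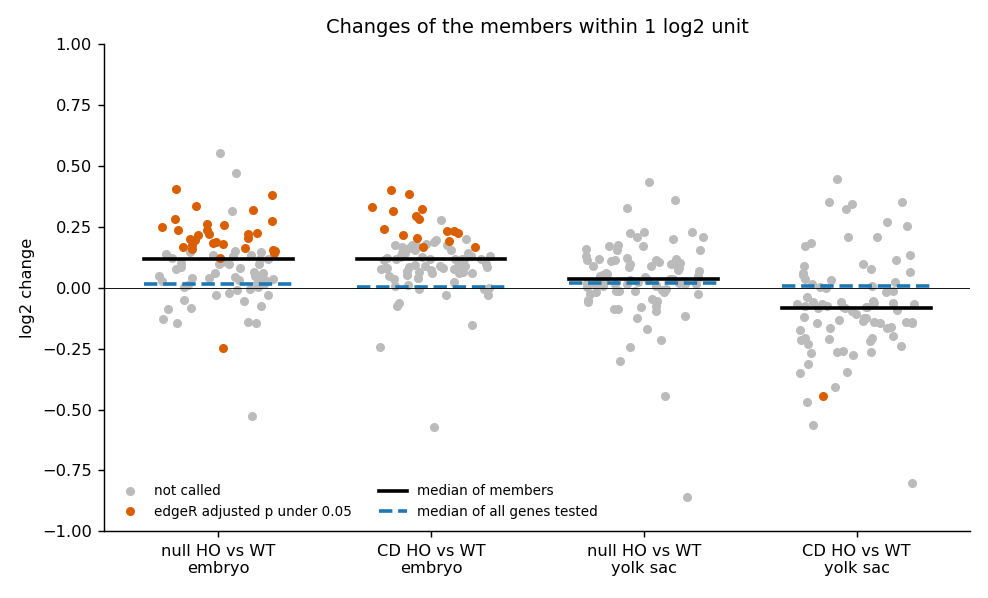
Log2 changes of the members, homozygous against WT, in both lines and tissues, drawn within 1 log2 unit; each point is 1 gene, orange where the edgeR adjusted p is under 0.05, with the median of the members (solid) and of all genes tested (dashed). The members' median is 0.12 in each embryo comparison, 0.03 in null and -0.08 in CD yolk sacs.

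The lines shared no libraries, and 14 members rose in both. These are 46.7% of the members that rose in null HO and 82.4% of those that rose in CD HO. Over all genes, 951 rose in both, 30.5% and 71.5% of the respective lists. Among them were Rpl13a, Rpl34, Rpl36a, Rpl37, Rpl37a, Rpl38 and Rplp2 of the large subunit and Rps3, Rps4l, Rps4x, Rps21, Rps23 and Rps27l of the small subunit. Of 85 members, 65 had a positive change in both lines and 6 a negative one. Sex went with genotype in the CD comparison. With a term for sex, only Rpl37a, Rps21 and Rps4l were called higher in both lines.

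**Figure D3:**
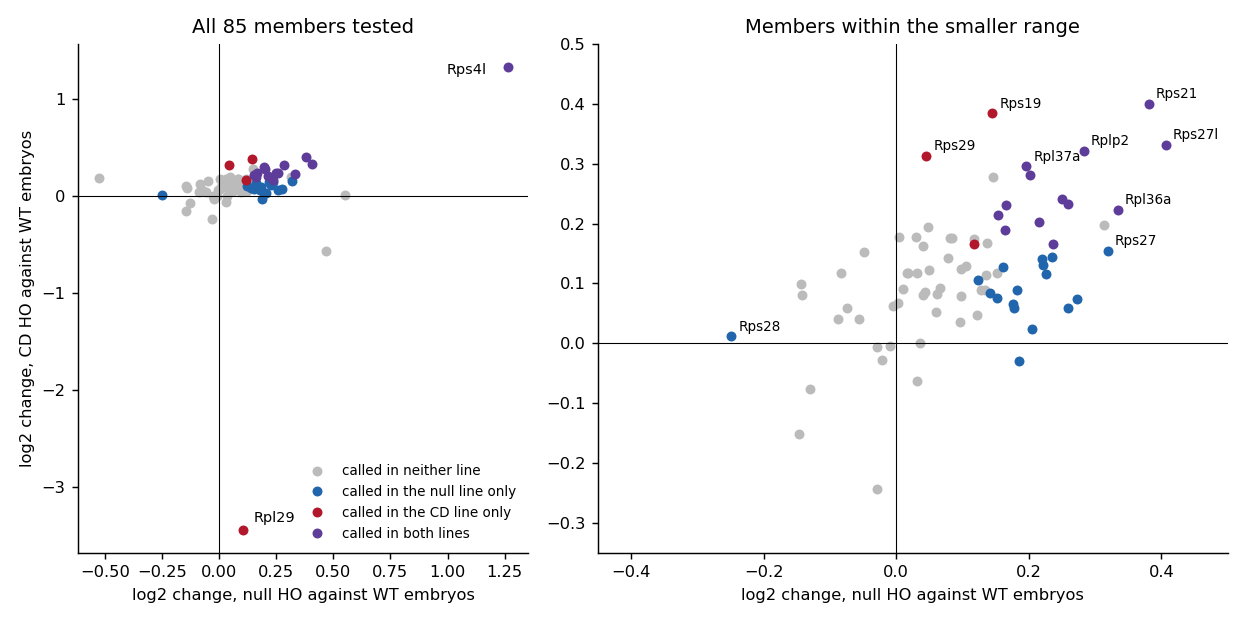
Log2 change of each of the 85 members in null HO embryos (x axis) and CD HO embryos (y axis), with all members on the left and an enlarged range on the right; colours give the line in which a member was called. Rpl29, selected for its fall in the CD line, stands alone at 0.10 and -3.44, Rps4l at 1.26 and 1.33, and most others lie a little above 0 on both axes.

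Among the small subunit genes, Rps4l changed most. Rps4l is a processed copy of X-linked Rps4x that resembles it at 79.9% of 783 aligned bases, with no identical run over 35 bases. It was at 55.1 and 53.3 CPM in null WT embryos, 68.2 and 61.8 in HE and 138 and 122 in HO. The CD embryos gave 60.4 and 52.6 CPM in WT, 72.1 and 68.4 in HE and 132 and 152 in HO. In both lines the HO libraries lay above all others and the HE libraries above WT. The log2 changes in HO were 1.26 ± 0.09 (edgeR adjusted p = 3.1e-06) in null and 1.33 ± 0.09 (adjusted p = 3.07e-06) in CD. Those in HE, 0.26 ± 0.09 and 0.31 ± 0.09, did not pass (edgeR adjusted p = 1 and 0.406).

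Rps21, a small protein on the solvent side of the small subunit, was at 165 and 169 CPM in null WT embryos, 171 and 172 in HE and 212 and 223 in HO. In CD embryos it was at 159.9 and 151, 171 and 165, and 202 and 209. Its change was 0.38 ± 0.05 in null HO (edgeR adjusted p = 0.000172) and 0.40 ± 0.05 in CD HO (adjusted p = 0.000337), with no overlap between HO and WT. Rps27l, a paralog of Rps27 known as a p53 target, went from 70.0 and 73.2 CPM in null WT to 90.0 and 99.8 in HO and from 68.7 and 61.1 in CD WT to 79.7 and 83.6 in HO. It rose by 0.41 ± 0.07 (edgeR adjusted p = 0.000909) and by 0.33 ± 0.07 (adjusted p = 0.00768). With a term for sex it kept its call in null HO and lost it in CD HO. Its parent Rps27 rose in null HO (0.32 ± 0.08, edgeR adjusted p = 0.0119) and was at 0.15 ± 0.08 in CD HO (adjusted p = 0.238).

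Further small subunit genes were called in 1 line or both. Rps26, whose protein lies where messenger RNA leaves the ribosome, was at 591 and 610.4 CPM in null WT and 704 and 696 in null HO (0.22 ± 0.05, edgeR adjusted p = 0.00382), and at 604 and 616 against 671 and 674 in the CD line (adjusted p = 0.0602). Rps19, mutated in Diamond-Blackfan anemia, was at 329 and 296 CPM in CD WT and 399 and 417 in CD HO (0.38 ± 0.08, edgeR adjusted p = 0.00526). Rps29 was at 249 and 241 against 291 and 317 in the same comparison (0.31 ± 0.06, adjusted p = 0.00683). Rps3, a protein at the entry channel for messenger RNA that rose in both lines, was at 816 and 797 CPM in CD WT and at 947 in each CD HO library (0.23 ± 0.05, edgeR adjusted p = 0.00639). With a term for sex Rps3 lost its call in CD HO. Rps28 was the 1 member that fell in null HO, from 228 and 219 CPM to 209 and 168 (-0.25 ± 0.08, edgeR adjusted p = 0.038). Its call was lost when either null WT library was left out (-0.22 and -0.28), when the second HO library was (-0.12), and when only the compared groups were fitted (-0.26), and in CD HO it was 0.01 ± 0.08.

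In the large subunit, Rpl23 was at 435 and 459 CPM in null WT embryos and 526 and 555 in null HO (0.27 ± 0.05, edgeR adjusted p = 0.00147). In CD HO its change was 0.07 ± 0.05 (edgeR adjusted p = 0.35). Rpl37a was at 276 and 254 CPM in CD WT and 321 and 330.0 in CD HO (0.30 ± 0.05, edgeR adjusted p = 0.00334). In null embryos Rpl37a was at 276 and 286 against 324 and 320.3 (0.20 ± 0.05, adjusted p = 0.0137).

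The ribosomal stalk, which recruits translation factors, is built of Rplp0, Rplp1 and Rplp2. Rplp2 rose in both lines, by 0.28 ± 0.08 in null HO (edgeR adjusted p = 0.015) and 0.32 ± 0.08 in CD HO (adjusted p = 0.0156). With a term for sex Rplp2 kept its call in CD HO and lost it in null HO. Rplp0 and Rplp1 were not called in either line, at -0.08 and 0.04 in null HO and 0.12 and 0.16 in CD HO. The 5S partners Rpl5 (0.12 ± 0.05, edgeR adjusted p = 0.0574, and 0.05 ± 0.05) and Rpl11 (0.07 ± 0.05 and 0.09 ± 0.05) were not called either. For Rpl5, null WT embryos held 958 and 992 CPM and null HO 1058 and 1065. Of the X-linked members, Rps4x and Rpl36a rose in both lines, and Rpl10 and Rpl39 were not called. Rpl36a was at 226 and 234 CPM in null WT and 271 and 309 in null HO (0.33 ± 0.06, edgeR adjusted p = 0.00164), and at 227 and 218 against 252 and 267 in CD (0.22 ± 0.06, adjusted p = 0.0291). With a term for sex, Rps4x and Rpl36a kept their call in null HO and lost it in CD HO.

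The paralogs Rpl7l1 and Rpl22l1 did not pass in embryos. Rpl7l1 was at 191 and 190.2 CPM in null WT and 181 and 168 in null HO (-0.13 ± 0.05, edgeR adjusted p = 0.0872), and Rpl22l1 at 0.03 ± 0.10 (adjusted p = 0.841). Measured by FPKM, Rps4l made up 9.46 to 21.9% of the sum of Rps4l and Rps4x across embryo libraries and 25.3 to 32.1% across yolk sacs. Rps27l made up 34.5 to 39.1% of its pair in embryos, Rpl22l1 16.03 to 19.1% and Rpl7l1 10.04 to 13.03%. Rpl3l, Rpl10l and Rpl39l stayed under 0.2% of theirs in embryos.

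**Figure D4:**
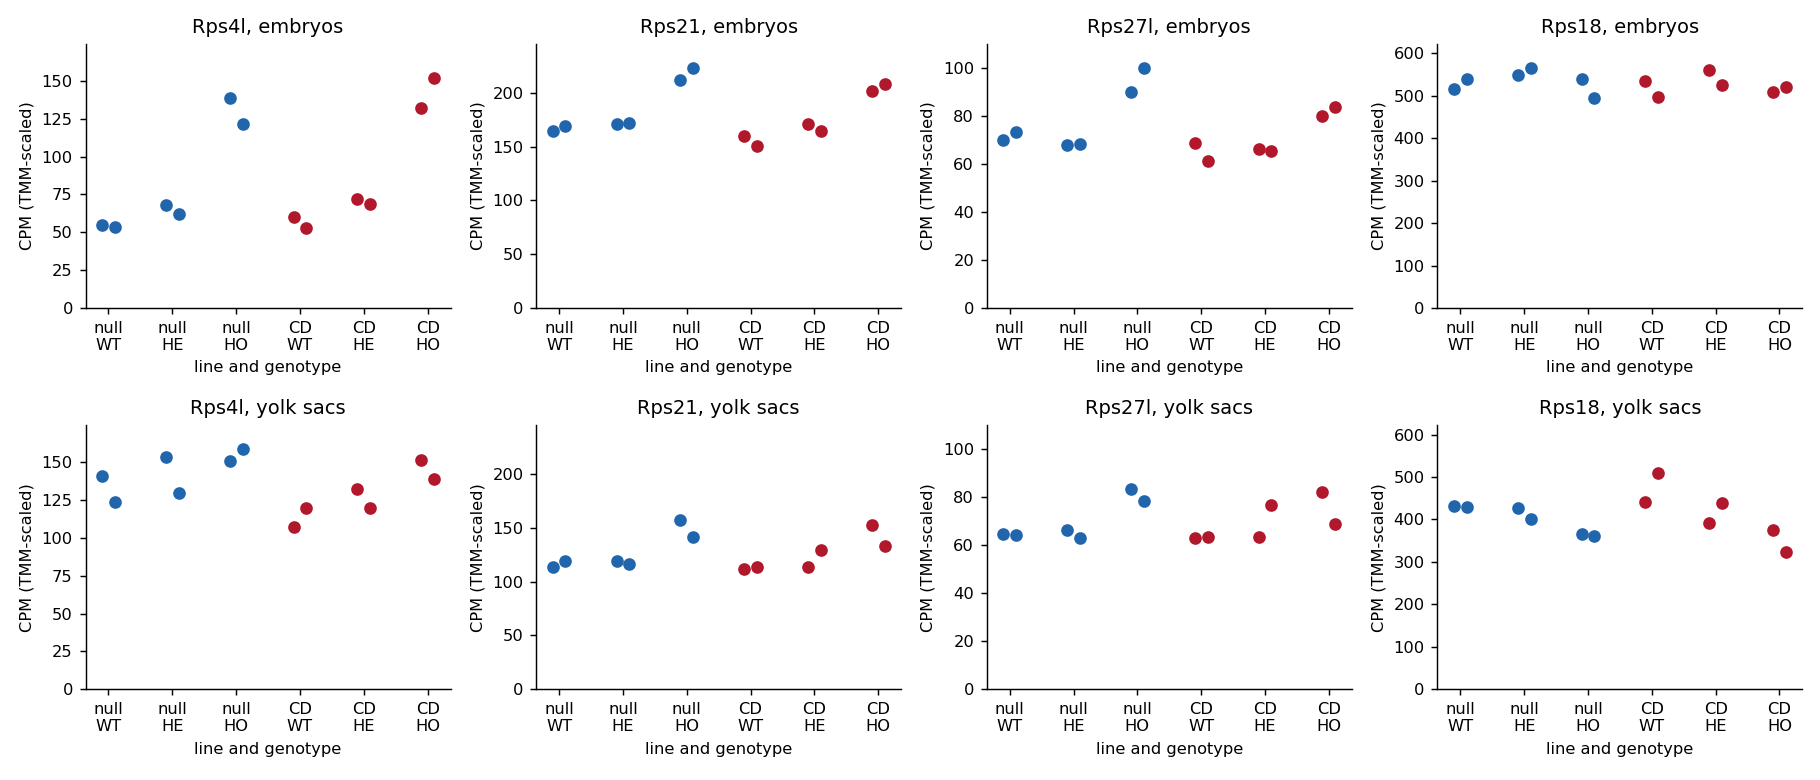
CPM of Rps4l, Rps21, Rps27l and Rps18 in every library, embryos on top and yolk sacs below, null blue and CD red; each point is 1 library and axes start at 0. Rps4l in HO embryos (122 to 152 CPM) reaches the level that yolk sacs of every genotype have (107 to 159), and Rps18 is lower in HO yolk sacs of both lines.

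Markers of other cell types moved with genotype in the same libraries. In bulk tissue, fewer cells of a type and less RNA per cell cannot be told apart. The summed level of the 10 primitive erythroid markers was 2162 to 3188 CPM in null WT embryos and 98.045 to 1375 in null HO, while in the CD line WT (1226 to 2401) and HO (637 to 1672) overlapped. The 10 visceral endoderm markers summed to 97.1 to 761 CPM in CD WT embryos and 11.1 to 16.2 in CD HO, with 2 of them at 0, and overlapped in the null line (38.3 to 46.3 and 21.2 to 79.4). The 5 heart markers summed to 915 to 976 CPM in null WT and 1002 to 1374 in null HO, and to 1037 to 1184 in CD WT and 1189 to 1225 in CD HO. Of these 5, 2 were called higher and 1 lower in null HO, and 0 in CD HO, beside the shares of all genes given above. The 8 neural tube markers summed to 442 to 497 CPM in null WT and 239 to 277 in null HO, and to 406 to 435 in CD WT and 301 to 356 in CD HO. Beside the same shares, 1 of these 8 was called higher and 4 lower in each line. The 5 somite markers summed to 157 to 161 CPM in null WT and 33.6 to 61.8 in null HO, and to 105 to 144 in CD WT and 55.5 to 64.1 in CD HO. The 5 trophoblast and decidua markers summed to 0.155 to 0.266 CPM in null WT and 0.617 to 17.4 in null HO. They summed to 0.750 to 1.16 CPM in CD WT and 1.29 to 1.76 in CD HO. Of the 2 of them tested, 2 were called higher in null HO and 0 in CD HO, beside the same shares. The part of these differences in the changes of the ribosomal protein genes was not tested. Mitochondrially encoded transcripts took 1.91 to 1.98% of counts in WT embryos and 1.46 to 1.62% in HO.

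In heterozygous embryos no member was called, leaving aside the selected Rpl29. In null HE embryos 0 members were called, beside 0.0104% of all genes, with 1 member at an unadjusted p under 0.05. DESeq2 also called 0. The change was positive for 71 of 85 members (50.5% of all genes), with a median of 0.02. In CD HE embryos 0 members were called beside the selected Rpl29, with 0.0156% of all genes called, and 65 members had a positive change (49.4%). In HE yolk sacs 0 members were called in either line, beside 0% of all genes, with 1 (null) and 3 (CD) at an unadjusted p under 0.05. The change there was positive for 28 of 87 members in the null line (48.7% of all genes) and for 15 in the CD line (49.9%). For the difference between the homozygous effects of the lines, no member was called in embryos (0.0208% of all genes) or yolk sacs (0.0282%), leaving aside the selected Rpl29. More members were called in embryos when null HO replicate 1 or CD WT replicate 1 was left out. With a median SE of this difference of 0.08 (embryos) and 0.16 (yolk sacs), small differences between the lines were not detectable. Between the WT groups of the lines 0 members were called in embryos, beside 0.0312% of all genes and 1 member at an unadjusted p under 0.05, and 0 in yolk sacs, beside 0.0451% and 5 members. Signs were nonetheless uneven between these WT groups: the change was positive for 15 of 85 members in embryos (50.5% of all genes) and for 68 of 87 in yolk sacs (50.2%).

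In yolk sacs no member rose by the edgeR test. Of 87 members tested (all but Rpl3l and Rps12l1), 0 were called in null HO by edgeR, beside 6.27% of all genes, 4 had an unadjusted p under 0.05 and DESeq2 called 1, Rps21. A positive change was found for 61 members, beside 52.1% of all genes. The median change was 0.03, beside 0.02 for all genes, and turned to -0.01 with a term for sex or without null HO replicate 1. The members of smallest p were Rps21 (0.36 ± 0.10, edgeR adjusted p = 0.0574), Rps27l (0.33 ± 0.12, adjusted p = 0.125) and Rpl7l1 (-0.21 ± 0.09, adjusted p = 0.168). For Rps21, null WT yolk sacs held 113 and 119.7 CPM and null HO 157 and 142. CD WT held 112 and 114 CPM and CD HO 153 and 133 (0.34 ± 0.10, edgeR adjusted p = 0.085). The HO libraries lay above WT in each line, by about as much as in embryos, but the change did not pass in either.

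In CD HO yolk sacs Rps18 fell, the 1 call among the 86 members other than the selected Rpl29. Of all genes, 3.15% were called and 1.89% called lower. Of these 86 members, 18 had an unadjusted p under 0.05. The median change was -0.08 (all genes 0.0083). In all, 26 of 87 members had a positive change (50.9% of all genes), and for 19 both HO libraries lay below both WT libraries (23.9%). Rps18, at the head of the small subunit, was at 441 and 509 CPM in CD WT, 391 and 439 in HE and 376 and 322 in HO (-0.44 ± 0.11, edgeR adjusted p = 0.0465). The call was lost without any one of CD WT replicate 1, CD WT replicate 2 or CD HO replicate 2. Among alternative runs that kept all libraries, Rps18 was called in 4 of 8. In null yolk sacs Rps18 was at 432 and 430.4 CPM in WT and 366 and 362 in HO (-0.24 ± 0.11, edgeR adjusted p = 0.207), and in embryos the change was -0.03 and -0.01.

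The visceral endoderm markers summed to 39308 to 42161 CPM in null WT yolk sacs and 29046 to 32261 in null HO, and to 38255 to 41405 in CD WT and 26865 to 35533 in CD HO. Trophoblast and decidua markers summed to 0.718 to 69.7 CPM in CD HO yolk sacs and to at most 15.8 in the other groups. The part of these markers in the changes was not tested. A single library weighed heavily on the CD comparison. CD HO replicate 2 had the fewest counts of all, 16400137, and its median member lay 0.15 log2 units below its own mean over yolk sacs, while the library labelled CD WT replicate 2 lay 0.15 above. The number of calls among members also depended on which library was left out. In CD HO replicate 2, Rpl23a was at 26.5 CPM against 57.2 to 90.2 in the other 11, Rpl30 at 59.5 against 105 to 155, and Rpl35a at 199 against 103 to 119 (chosen after their values were seen). Without the library labelled CD WT replicate 2 the median change of the members was -0.043, and Rpl34 was called higher. Leaving out the first CD HO library gave a median of -0.22, and leaving out the second gave 0.00035.

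The homozygous effect in yolk sac minus that in embryo was called for Rps4l in the null line (-1.07 ± 0.15, edgeR adjusted p = 0.000269; 10.1% of all genes called). In the CD line it was called for Rps4l (-0.98 ± 0.15, adjusted p = 0.00161) and Rps18 (-0.44 ± 0.12, adjusted p = 0.0463), beside 2.94% of all genes. In yolk sacs Rps4l was at 141 and 124 CPM in null WT and 151 and 159 in HO, and at 107 and 119.7 in CD WT and 151 and 139 in HO. Its level in WT yolk sacs was thus already near that of HO embryos. For Rpl29 the yolk sac and embryo changes in the CD line differed by 0.11 ± 0.24. The median difference over the members was -0.12 in the null line and -0.23 in the CD line, beside -0.0082 and 0.026 for all genes. The CD value rests on yolk sac changes whose median ran from -0.225 to 0.00035 when single libraries were left out. The number of calls in the CD line depended on single libraries.

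Within the CD yolk sacs, Rps3a1 and Rpl34 were low where processed copies were high, in some libraries and not in others. These genes, and Rpl30 below, were chosen after their values were seen. Rps3a1, a small subunit protein, was at 786 to 872 CPM in the null yolk sacs. In the CD line it was at 577 and 979 in WT, 566 and 519 in HE and 913 and 578 in HO. Its copy Rps3a2 was at 2.24 to 4.33 CPM in the null libraries, in the library labelled CD WT replicate 2 and in CD HO replicate 1. In the other CD yolk sacs it was at 58.6 (WT replicate 1), 52.7 and 73.1 (HE) and 74.6 CPM (HO replicate 2). Rps3a3 followed the same libraries, at 106, 101, 149 and 117 CPM against 5.69 to 7.89 elsewhere. Low Rps3a1 and high copies thus occurred together in the same 4 libraries, which span the 3 genotypes. The sum of the 3 genes was 742, 719.5, 741 and 770 CPM in those 4 libraries and 797 to 989.7 in the other yolk sacs. It was thus lower, without overlap, where the copies were high. In embryos Rps3a1 was at 1001 to 1285 CPM and Rps3a2 at 1.08 to 2.31.

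Rps3a2 (chromosome 14) is 99.5% identical to the coding sequence of Rps3a1 (chromosome 3), with 4 substitutions and 317 identical bases in a row, and Rps3a3 (chromosome 13) is 98.9% identical with 9. The copies share T216C and T534C. The stretch around position 216 is shown because both copies differ from Rps3a1 there by 1 base, in capitals, with the remaining 40 bases identical. The Rps3a1 stretch is chr3:86141357-86141397 on the minus strand.
Rps3a1: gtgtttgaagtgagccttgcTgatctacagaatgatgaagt
Rps3a2 (chr14:88123573-88123613, minus strand): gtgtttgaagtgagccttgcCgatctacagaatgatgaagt
Rps3a3 (chr13:108670798-108670838, plus strand): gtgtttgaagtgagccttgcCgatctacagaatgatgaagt

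Rpl34, a large subunit protein, was also low where Rpl34-ps1 was high, in another set of libraries. These were all the CD WT and HE libraries and no CD HO library. Rpl34 was at 128 to 149.8 CPM in null yolk sacs, 30.6 and 94.7 in CD WT, 31.5 and 71.7 in CD HE and 157 and 119.9 in CD HO. Rpl34-ps1 was at 86.5 and 52.0 CPM in CD WT and 86.7 and 63.3 in CD HE, and at 6.84 to 9.66 in all null and CD HO yolk sacs. The fitted change of Rpl34 in CD HO, 1.14 ± 0.42 (edgeR adjusted p = 0.149), therefore stands beside a fall of the copy, and the sums of the pair overlapped, at 117 and 147 CPM in WT and 166 and 128 in HO. Rpl34-ps1 carries T132C and C318G against Rpl34. Rpl30-ps1 had 237 counts in the library labelled CD WT replicate 1 and 243 in CD HO replicate 1, against 4 to 18 in the other 10 yolk sacs. Rpl30 was at 105 and 113 CPM in those libraries, but was lowest in CD HO replicate 2 (59.5 CPM), where the copy was not high. The source of these differences was not tested.

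**Figure D5:**
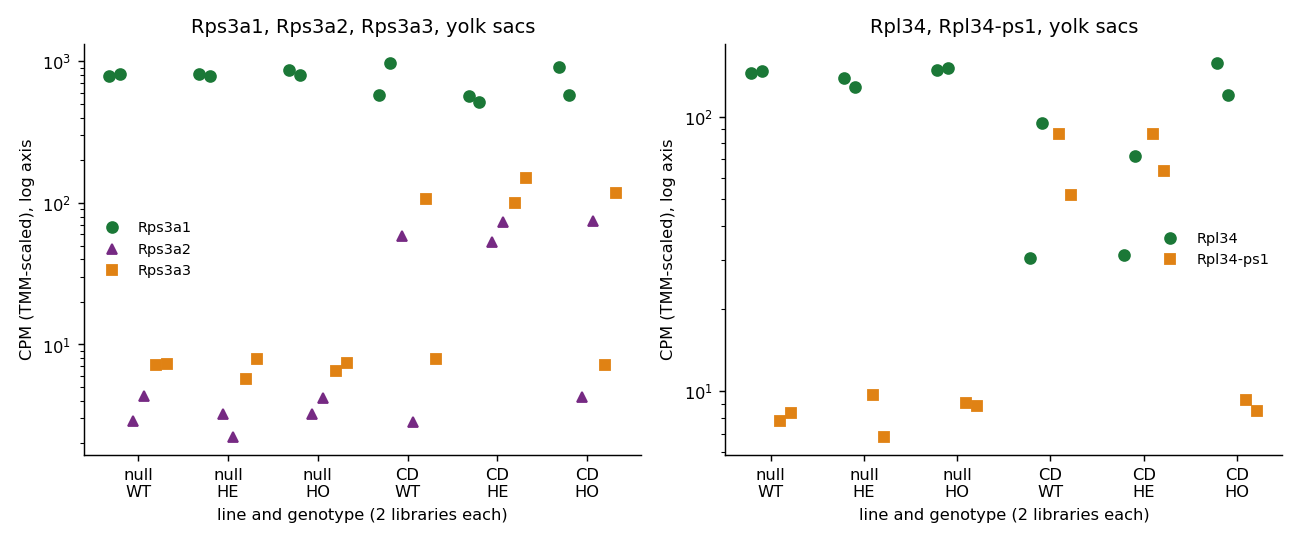
CPM on a log axis of Rps3a1 with its copies Rps3a2 and Rps3a3 (left) and of Rpl34 with Rpl34-ps1 (right) in every yolk sac library by line and genotype; each point is 1 library. In the CD line Rps3a2 is either at 2.82 to 4.23 CPM or at 52.7 to 74.6, in libraries of different genotype.

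The spread of single members over all 12 libraries was small in embryos, with a median SD of log2 CPM of 0.085 over the 81 members at 10 CPM or more. Rpl29 (1.34), Rps4l (0.59), Rps27l (0.21) and Rps21 (0.18) varied most. In yolk sacs the median SD over 82 members was 0.12, and the most variable were Rps3a2 (2.13), Rps3a3 (1.998), Rpl29 (1.346), Rpl34 (0.85) and Rpl23a (0.45). Rps27a, whose product is fused to ubiquitin, ran from 231 to 422 CPM over yolk sacs with no order by genotype.

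By FPKM, the highest members in WT embryos were Rplp1 (1085 ± 82, SD over the 4 WT libraries), Rps3a1 (1082 ± 22) and Rplp0 (1021 ± 38). In WT yolk sacs they were Rplp1 (875 ± 51), Rps3a1 (800 ± 162) and Rpl4 (799 ± 71), and the order of the first 3 is within their spread in each tissue. The median member stood at 199 FPKM in embryos and 158 in yolk sacs, and 66 and 63 members reached 100. At the other end, Rps12l1 and Rpl10l were listed at 0 in WT embryos and Rpl39l at 0.012, and in yolk sacs Rps12l1 was at 0, Rpl3l at 0.075 and Rpl10l at 0.44. Rpl24, a core protein of the large subunit, was listed at 0.89 FPKM in embryos and 0.52 in yolk sacs, and Rps10 at 5.98 and 2.66 (chosen after their values were seen). Rpl24 has 4 annotated copies and Rps10 has 3 at 95% identity or more. Of the 83 members with a coding sequence, 75 had at least 1 such copy, with a median of 5 and the most, 61, for Rpl21. Levels of members with near-identical copies are uncertain, since the sources used here do not give how multiply matching reads were counted.

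Of 4 ribosomal protein genes outside the name rule, Fau, which encodes Rps30 fused to a ubiquitin-like protein, rose in CD HO embryos (0.26 ± 0.07, edgeR adjusted p = 0.0323). It was at 222 and 213 CPM in CD WT and 257 and 263 in CD HO, and in null HO it did not pass (0.17 ± 0.07, adjusted p = 0.0963). Rack1, the signalling scaffold on the small subunit, was at 0.01 ± 0.07 in null HO and 0.19 ± 0.07 in CD HO (edgeR adjusted p = 0.953 and 0.101). Rpl36al stayed at 1.350 CPM or less in all libraries.

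Genes that build and use ribosomes were also counted, from lists written by general knowledge. Their counts stand beside 16.2% of all genes higher and 16.5% lower in null HO embryos, and 6.92% and 9.14% in CD HO. In null HO embryos 17 of 36 large subunit assembly factors rose and 1 fell (median 0.15), 16 of 40 small subunit assembly factors rose and 4 fell (median 0.14), and 14 of 29 translation factors rose and 0 fell (median 0.16). The first of these were Nmd3, the export adaptor of the large subunit (0.48 ± 0.05, edgeR adjusted p = 6.33e-05), Nop14 of the small subunit processome (0.43 ± 0.05, adjusted p = 0.000113) and Pabpc1, the poly(A) binding protein (0.89 ± 0.10, adjusted p = 5.95e-05). In CD HO embryos the counts were 3 of 36 higher and 0 lower, 7 of 40 higher and 2 lower, and 7 of 29 higher and 0 lower, with Nmd3 at 0.30 ± 0.05, Nop14 at 0.29 ± 0.05 and Pabpc1 at 0.44 ± 0.10. Of 10 proteins of small nucleolar RNA particles, 4 rose and 1 fell in null HO and 2 rose and 1 fell in CD HO. The 1 that fell was Fbl, the methyltransferase of box C/D particles, by 0.54 on the log2 scale in null HO (edgeR adjusted p = 0.000117) and 0.58 in CD HO (adjusted p = 0.000194). For RNA polymerase I and its factors, 5 of 16 rose and 2 fell in null HO, among them Tcof1 (0.71 ± 0.10, edgeR adjusted p = 0.000289), and 1 rose and 1 fell in CD HO.

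Beside the same shares of all genes, of 77 mitochondrial ribosomal proteins tested, 5 rose and 17 fell in null HO embryos (median -0.10) and 3 rose and 6 fell in CD HO (median -0.02), with Mrpl20 lower in both lines (-0.83 ± 0.08 and -0.41 ± 0.08). In yolk sacs 0 large subunit assembly factors were called (medians -0.07 in null HO and -0.19 in CD HO), 0 small subunit ones in null HO and 1 lower in CD HO (-0.08 and -0.18), and 0 translation factors (0.06 and -0.04). Of all genes tested there, 6.27% were called in null HO and 3.15% in CD HO, in either direction. Of 12 genes that control ribosomal protein synthesis, 5 rose and 2 fell in null HO embryos and 1 rose and 1 fell in CD HO embryos. Eif4ebp1, a brake on cap-dependent translation, rose in each line (0.74 ± 0.12 and 0.81 ± 0.12, edgeR adjusted p = 0.000697 and 0.00114). Rps6kb1, the kinase of Rps6, fell in each (-0.21 ± 0.05 and -0.32 ± 0.05, adjusted p = 0.00824 and 0.00168). Of 6 genes of the p53 checkpoint, 5 rose in null HO and 4 in CD HO embryos, with Cdkn1a, an inhibitor of cell cycle kinases, at 8.88 and 7.79 CPM in null WT and 87.7 and 48.0 in null HO. In yolk sacs 3 of the 6 rose in null HO and 0 in CD HO, beside 6.27% and 3.15% of all genes called in either direction. Cdkn1a was at 16.4 and 15.7 CPM in CD WT yolk sacs and 24.3 and 31.0 in CD HO (0.78 ± 0.22, edgeR adjusted p = 0.0794).

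Around Rpl29 and Setd2 on chromosome 9, 154 genes were tested in embryos. In null HO, 15 rose and 30 fell, and in CD HO 17 rose and 29 fell with the selected Rpl29 counted. Of all genes, 16.5% were called lower in null HO and 9.14% in CD HO, beside the higher shares given above. In CD HE embryos none of the 153 genes tested beside the selected Rpl29 was called. The next genes on either side of Rpl29 did not share its size of change. Dusp7, a phosphatase gene on one side, was at 66.3 and 61.7 CPM in CD WT embryos, 57.9 and 55.1 in HE and 46.9 and 47.0 in HO. Acy1, an aminoacylase gene on the other side, was at 17.1 and 18.8, 18.4 and 17.2, and 15.89 and 15.997. Leaving Rpl29 aside, the neighbours of smallest p in CD HO embryos were Tma7, known as a ribosome-associated factor (-0.54 ± 0.05, edgeR adjusted p = 4.7e-05), Ppm1m (-0.89 ± 0.09, adjusted p = 5.22e-05) and Lsmem2 (2.61 ± 0.27, adjusted p = 9.64e-05). Lsmem2 had low levels that rose by genotype, at 0.52 and 0.62 CPM in CD WT, 2.15 and 1.83 in HE and 3.41 and 3.65 in HO. Tma7 also fell in null HO (-0.38 ± 0.05, edgeR adjusted p = 0.000221).

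Promoters were compared because the members moved together by a small amount. RefSeq (GRCm38.p6) gave 76 start sites for 64 of the 89 members, with none listed for Rpl29 or Rps4l. The letters CTTTC, a short pyrimidine run, were searched on both strands within 15 bases of each start. They were found at 19 of the 76 starts (25%), beside 7.57% of all 32851 promoters of the same length. The letters CCGGAAG, a core of sites for ETS family factors such as GABP, were searched on both strands in 300 bases and were found in 27 (35.5%), beside 8.86%. At the 15 starts of the members that rose in both lines the shares were 20% and 46.7%, and at the 57 starts of the other members tested in embryos 26.3% and 33.3%. The 30 bases around a start are printed for 4 members that rose in both lines, 3 with the run (in capitals) and Rps21 without it. Such a match is a description of the sequence and not a mapped site.
Rplp2 (chr7:141447636-141447665, plus strand): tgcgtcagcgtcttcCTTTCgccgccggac
Rpl38 (chr11:114668565-114668594, plus strand): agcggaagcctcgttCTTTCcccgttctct
Rpl13a (chr7:45128731-45128760, minus strand): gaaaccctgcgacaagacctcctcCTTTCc
Rps21 (chr2:180257364-180257393, plus strand): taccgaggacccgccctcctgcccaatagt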

How the data were processed

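The authors deposited 2 tables, 1 per tissue, holding raw read counts and FPKM of every gene in 12 libraries. Per the labels' protocols, RNA was taken with TRIzol from whole embryos or yolk sacs and made into messenger RNA libraries with a KAPA kit. The submitters' processing notes name fastp 0.22.0, HISAT2 2.2.1, featureCounts 2.0.1, DESeq2 1.32.0 and mm10. The sources used here do not give the annotation release, strand setting or treatment of multiply matching reads. The deposited FPKM were used only to compare levels between genes.

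Tests used the deposited counts in edgeR 4.0.16 (R 4.3.3): 1 fit per tissue with all 12 libraries, TMM scaling, filterByExpr (minimum count 10, minimum total 15), quasi-likelihood F-tests, and p-values adjusted by Benjamini-Hochberg across all 19215 (embryo) or 17755 (yolk sac) genes, with a threshold of 0.05. The common coefficient of variation was 0.087 and 0.165. Tissue differences came from 1 fit of 24 libraries over 20543 genes. CPM are TMM-scaled, and SE were derived from the F statistic. The procedure was tested on simulated data. Alternatives were RLE factors, library totals, TMM without the members, no filter, a replicate block, a sex term, DESeq2 1.42.0, only the groups compared, and leaving out each replicate. Copies were found with BLAST 2.17.0 of member coding sequences against GENCODE M21 transcripts. Replicates of a group differed by more than sampling noise (chi-square per degree of freedom 2.95 to 32.3).

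The members, lists and alternatives were chosen with earlier results of these data known. Genes were named by a rule: Rpl29, up to 6 called members each way of smallest p per homozygous comparison (or 3 where none was called), members whose difference of effects was called, X-linked members, paralogs with parents, Rpl5 and Rpl11, the 3 highest and lowest by FPKM, 4 genes outside the name rule, and up to 3 genes of smallest p per further list and among chromosome 9 neighbours. Some genes that these rules reach are not reported here.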

Additional observations from a re-analysis of the deposited data

Results flagged for a closer look

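For 2 members, Rps4l and Rps18, an effect differed between tissues by a test of the difference itself. Rpl29 was chosen for its fall in the CD line and is given without a test. Its CD minus null homozygous effect was -3.55 in embryos and -3.33 in yolk sacs on the log2 scale. For Rps4l, the homozygous effect in yolk sacs was below that in embryos by -1.07 in the null line and -0.98 in the CD line, each with an edgeR adjusted p under 0.05 over all genes. For Rps18 the same difference in the CD line was -0.44. The Rps18 difference lost its call with library totals alone, with a replicate block, with a sex term and without any one of 6 libraries.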

How the results depend on the processing

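Leaving out single libraries gave 8 to 34 called members in null HO embryos (main count 31), 4 to 15 in CD HO embryos (18), 0 in null HO yolk sacs and 1 to 20 in CD HO yolk sacs (2). It gave 1 to 3 in CD HE embryos, 1 to 9 and 1 to 4 for CD minus null in embryos and yolk sacs, and 1 to 38 for the tissue difference in the CD line (2). The median change ran from 0.071 to 0.13 in CD HO embryos, from -0.225 to 0.00035 in CD HO yolk sacs (main -0.082), and from -0.014 to 0.051 in null HO yolk sacs, where a sex term gave -0.015. Fits of only the groups compared called 7 (null HO embryos), 10 (CD HO embryos), 1 (null HO yolk sacs) and 1 (CD HO yolk sacs). A sex term called 8 in CD HO embryos, 1 in CD HO yolk sacs and 1 for the CD tissue difference. Without a filter 3 were called in CD HE embryos, 10 in CD HO yolk sacs, 4 in CD HE yolk sacs, 2 for CD minus null in yolk sacs, and 2 (null) and 7 (CD) for tissue differences. DESeq2 called 1 in null HO yolk sacs and 6 for the CD tissue difference, and library totals 1 and 1. Counts for the CD line in this section include the selected Rpl29 where it was called. The share of all genes called in each run is not given here, so a shift of the members cannot be told from one of all genes. The cause of these shifts was not tested.

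With the replicate number as a block, 29 members were called in null HO embryos, 17 in CD HO embryos, 0 in null HO yolk sacs, and 1 each in CD HO yolk sacs and the CD tissue difference, where Rps18 lost its call. The numbers were not taken as pairs: deviations of same-numbered libraries correlated at -0.17 to 0.11 in embryos and -0.17 to 0.26 in yolk sacs.

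The sign of uncalled Rpl29 changes in the null line turned in 10 of 377 checks of named genes: HO embryos without HO replicate 1 -0.034 (0.21, called, without HO replicate 2); HO yolk sacs with RLE -0.0035, no filter -0.0033, a sex term -0.096, DESeq2 -0.0056, only the groups compared -0.0055, and without a replicate -0.0083 and -0.091 (range -0.091 to 0.070); HE with a sex term -0.044 (embryos) and -0.070 (yolk sacs). Of the rest 337 kept direction and call, 25 lost and 5 gained a call. Embryo levels near 1 CPM, as for Rpl24 and Rpl32l, limit the precision of their changes.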
